A study of Caenorhabditis elegans with 2 samples.

Results

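The regions described here are 374 peaks of chromatin immunoprecipitation that lay between genes and away from protein-coding promoters, of 2228 peaks in the authors' main list (16.8%, exact 95% interval to 18.4%). They were chosen by position alone. The summit of the peak, its highest point, had to lie outside every protein-coding gene, outside the window from 1000 bp upstream to 200 bp downstream of every protein-coding 5′ end, and farther than 100 bp from any tRNA gene. Chromatin came from whole L4 larvae of Caenorhabditis elegans, 47.5 hours old, of strain RW12291, whose gene Y48G9A.11 on chromosome III carries a CRISPR insertion of TY1, EGFP and 3xFLAG tags. An antibody against GFP was used. Both samples belonged to this 1 group, as biological replicates 1 and 2, and no sample without the tag was analysed, so the replicates show how repeatable the peaks were and not what an untagged strain would have given. Whole larvae hold every tissue, so a peak in few cells and a weak peak in many cells cannot be told apart.

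In the compact nematode genome most promoters sit just before protein-coding genes, and what is left between genes holds the 3′ ends of genes, small RNA genes, pseudogenes and repeated elements. RNA polymerase III transcribes tRNA genes from promoter elements inside the gene, called the A box and the B box, and old copies of tRNA genes that are scattered over the genome can keep them. Small nucleolar RNAs (snoRNAs) guide chemical changes of ribosomal RNA, small nuclear RNAs (snRNAs) serve in splicing, and many of their nematode genes stand alone between larger genes.

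A sequence that recurred under strong peaks was found at 17 listed peaks, of which 9 were intergenic, 6 intronic and 2 at one-sided promoters. Each of the 9 intergenic peaks had its summit in the 5′ window of an annotated pseudogene, at most 263 bp from it. Whether these pseudogenes are related was not tested. The peaks are called the cdh-5 group here, after the gene to the right of the strongest intergenic one. The gene cdh-5 encodes a cadherin, a cell adhesion protein. The bases from 50 before to 50 after the summit, read by their ce11 coordinates from the RefSeq sequence of the same assembly, are shown for 4 of these peaks because all 4 share 1 core. The same holds for every sequence printed here. Capitals mark runs of 7 or more bases found in all 4.

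Beside pseudogene F08B4.3, IV:8665939-8666039, plus strand: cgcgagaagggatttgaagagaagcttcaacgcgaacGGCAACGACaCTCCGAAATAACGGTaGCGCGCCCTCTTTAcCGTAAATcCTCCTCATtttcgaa
Beside pseudogene F40H6.6, III:6064922-6065022, plus strand: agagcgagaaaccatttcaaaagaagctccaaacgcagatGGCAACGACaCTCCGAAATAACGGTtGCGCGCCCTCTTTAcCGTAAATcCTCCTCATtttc
In pseudogene W02F12.1, V:6715005-6715105, plus strand: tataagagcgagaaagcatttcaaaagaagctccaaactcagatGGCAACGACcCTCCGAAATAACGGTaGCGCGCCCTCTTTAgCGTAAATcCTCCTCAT
Beside pseudogene Y39B6A.49, V:19094730-19094830, plus strand: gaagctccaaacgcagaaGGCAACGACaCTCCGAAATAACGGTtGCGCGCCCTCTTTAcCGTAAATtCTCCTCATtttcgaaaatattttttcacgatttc

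The capitals cover 53 of the 101 bases in each of the 4. Signal, the authors' value for the strength of a peak, has no stated unit, and a pooled value lay near the total of both replicates (median ratio 0.993), so pooled and single values are not on 1 scale. The peak beside F08B4.3 had 404 in replicate 1 and 469 in replicate 2, with 896 in the pooled list. Beside F40H6.6 the signal was 367 in replicate 1 and 405 in replicate 2, with 789 pooled. In W02F12.1 it was 273 in replicate 1 and 202 in replicate 2, with 490.0 pooled, and beside Y39B6A.49 it was 160 in replicate 1, 197 in replicate 2 and 376 pooled. Over the 9 peaks the pooled signal had a median of 568 and ran from 136 to 896. Of the 9, 8 overlapped a peak in both replicates' own lists, as 37.9% of all listed peaks did. These 8 had pooled signals of 232 or more, and the peak with 136 was in neither list. Most peaks of such strength were in both lists. Among intergenic peaks with pooled signals from 189.97 to 1768 it was 75 of 80 (93.8%).

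A second shared sequence was longer and nearly identical between its copies. It is called the wnk-1 group after the kinase gene wnk-1, to the right of the strongest copy. Of its 5 intergenic peaks, on chromosomes II and IV, 4 are shown, turned to read the same way, with capitals again for runs of 7 or more bases found in all 4.

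Between C46C2.7 and wnk-1, IV:9196365-9196465, plus strand: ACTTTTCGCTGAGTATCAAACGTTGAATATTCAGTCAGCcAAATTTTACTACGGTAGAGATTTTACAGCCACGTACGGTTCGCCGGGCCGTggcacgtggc
Between K07D4.2 and gadr-4, II:4048001-4048101, minus strand: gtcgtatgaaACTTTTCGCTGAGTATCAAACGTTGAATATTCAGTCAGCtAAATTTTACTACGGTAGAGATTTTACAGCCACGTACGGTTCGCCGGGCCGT
Between Y116A8A.150 and map-2, IV:16845554-16845654, minus strand: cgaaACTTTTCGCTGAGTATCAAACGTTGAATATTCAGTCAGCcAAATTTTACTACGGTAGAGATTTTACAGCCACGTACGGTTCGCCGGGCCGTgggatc
Between ari-1.4 and Y73F8A.35, IV:15530705-15530805, plus strand: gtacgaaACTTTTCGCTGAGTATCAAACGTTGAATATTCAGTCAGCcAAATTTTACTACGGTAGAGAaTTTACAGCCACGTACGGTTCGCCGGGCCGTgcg

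The copy left of wnk-1 had a signal of 575 in replicate 1 and 658 in replicate 2, and 1243 pooled. The other 4 had pooled signals of 502, 423, 377 and 330.1, and all 5 overlapped a peak in both replicates' own lists. The copy with 423, between zip-11 and F42A6.5, is not printed. Its 101 bases at the summit occur unchanged at 5 places of the genome, so its signal cannot be assigned to this place alone. The strongest of the 4 printed copies stands well above the others in both replicates, while the capitals cover 89 or 90 of the 101 bases in each. How reads that align to several places were treated is not given in the sources used here.

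Another kind of sequence resembled tRNA genes. The nhr-277 group, after a nuclear hormone receptor gene, held 43 listed peaks, of which 18 lay at annotated tRNA genes and 13 were intergenic. The 3 shown here are the strongest of the 13 and were also required to share runs of 7 bases with the first. The first lies in an annotated tRNA pseudogene, the only 1 of the 13 at such a pseudogene. Capitals again mark runs of 7 or more bases found in all 3. Whether the rest of the 13 hold these stretches was not tested.

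At tRNA pseudogene Y94H6A.t1, IV:2740180-2740280, plus strand: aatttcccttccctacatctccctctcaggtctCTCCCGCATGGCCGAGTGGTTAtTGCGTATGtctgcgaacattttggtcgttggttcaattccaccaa
Between pdfr-1 and rbf-1, III:6661775-6661875, minus strand: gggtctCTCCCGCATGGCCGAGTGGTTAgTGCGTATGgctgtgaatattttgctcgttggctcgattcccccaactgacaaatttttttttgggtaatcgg
Between pqn-39 and F48F7.5, X:13973250-13973350, plus strand: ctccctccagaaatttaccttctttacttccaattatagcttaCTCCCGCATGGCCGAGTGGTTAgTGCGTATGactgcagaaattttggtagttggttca

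The peak at Y94H6A.t1 had a signal of 106 in replicate 1 and 132 in replicate 2, with 235 pooled. The one between pdfr-1 and rbf-1 had 117 in replicate 1, 78.4 in replicate 2 and 188 pooled. The 13 intergenic peaks of the group had pooled signals from 99.6 to 235 with a median of 131, and 6 of them were in both replicates' own lists. None of the 13 held the B box as searched here (GGTTCGANNCC, either strand, within 50 bases of the summit). The search is strict: even at tRNA genes only 126 of 298 peaks (42.3%) had these exact letters. Their absence therefore does not show that the 13 lack a B box.

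Peaks that did hold this B box were 9 of the 374 (2.41%, exact 95% interval 1.11% to 4.52%), against 16 of the 1556 other peaks away from tRNA genes (1.03%). The share was higher among intronic peaks, 14 of 363 (3.86%, exact 95% interval 2.12% to 6.39%). At one-sided promoters it was 2 of 646, and between divergent genes and in exons it was 0. Over all 2228 listed peaks it was 151 (6.78%), of which 126 lay at tRNA genes that the position rule leaves out. At 250 to 350 bp from the summit, 0 of the 374 held it, which says only that these letters were not in that stretch. Shown are 4 of the 9 with the B box in capitals, on the strand that holds it. Before the B box, the printed sequences from chromosome III all hold the letters gcctagtggcta. The sequence from chromosome II does not. Nor does the one near mir-51 on chromosome IV, with 190 pooled, which is not printed. For the rest of the 9 no sequence is given here.

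Between mrpl-40 and pat-4, III:89292-89392, minus strand: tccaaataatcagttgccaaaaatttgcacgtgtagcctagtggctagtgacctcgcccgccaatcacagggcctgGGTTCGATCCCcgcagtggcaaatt
Between ckr-2 and dpy-1, III:2030886-2030986, minus strand: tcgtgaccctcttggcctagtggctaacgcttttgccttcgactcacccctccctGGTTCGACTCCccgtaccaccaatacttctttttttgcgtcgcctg
Between Y53G8B.2 and nipa-1, III:3107632-3107732, minus strand: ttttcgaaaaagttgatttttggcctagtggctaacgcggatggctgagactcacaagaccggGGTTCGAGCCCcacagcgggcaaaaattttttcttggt
Between W03C9.6 and W03C9.1, II:11960795-11960895, plus strand: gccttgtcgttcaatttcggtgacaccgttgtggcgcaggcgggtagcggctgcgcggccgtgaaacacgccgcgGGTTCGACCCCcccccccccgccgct

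The strongest of the 9 was the peak between W03C9.6 and W03C9.1, with 349 in replicate 1, 335 in replicate 2 and 683 pooled; its summit lay 53 bp before the 5′ end of the snoRNA gene W03C9.9. The peak between the 3′ ends of mrpl-40, a gene for a mitochondrial ribosomal protein, and pat-4, the integrin-linked kinase gene, had 194 in replicate 1, 216 in replicate 2 and 401 pooled. It lay 99 bp from the 3′ end of mrpl-40 and 111 bp from that of pat-4, and both replicates had it in their own lists. Between ckr-2 and dpy-1 the signal was 89.5 in replicate 1, 68.6 in replicate 2 and 156 pooled, and this peak was in replicate 1's own list but not in that of replicate 2. Within 100 bp of an annotated tRNA pseudogene lay 3 intergenic peaks, and a B box or such a pseudogene was found at 12 of the 374.

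The last repeated sequence shown is a tandem array of the palindrome TTCNNGAA, which is written in capitals. This palindrome is the core of the heat shock element bound by the heat shock factor HSF-1. It was searched for after the arrays had been seen under the peaks, so its count is a description only.

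Between fbxa-190 and F56C3.10, X:1375189-1375289, plus strand: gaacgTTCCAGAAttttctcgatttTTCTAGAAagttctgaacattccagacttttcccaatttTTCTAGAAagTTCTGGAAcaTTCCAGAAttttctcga
Between Y41E3.13 and Y41E3.18, IV:15059303-15059403, plus strand: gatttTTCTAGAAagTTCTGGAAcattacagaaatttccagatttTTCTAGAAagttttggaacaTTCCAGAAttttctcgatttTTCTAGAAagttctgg

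All 9 intergenic peaks of this F56C3.10 group held the palindrome. The first had a signal of 233 in replicate 1, 170.0 in replicate 2 and 389 pooled; the second had 195 in replicate 1, 189 in replicate 2 and 367 pooled. The lowest of the 9 had 50.5 pooled; it overlaps a stronger one of the 9 on X, and both were matched to the same peak in each replicate's list. Over all 374 intergenic peaks the palindrome was near 23 summits (6.15%), against 31 of their flanking stretches (8.29%). Over all listed peaks it was near 5.16% of summits.

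Counted over all of them, 134 of the 374 intergenic peaks (35.8%, exact 95% interval 31.0% to 40.9%) shared sequence with another listed peak. Over all listed peaks it was 29.8%, and 20.3% without the peaks at tRNA genes. Sharing means an alignment of at least 80 bases at 80% identity or more between the 201 bases around the 2 summits, for peaks whose regions do not overlap. Stretches centred 600 bp from the same summits shared sequence in 44 of 374 cases (11.8%). Among the other positions the share was 36.4% for intronic peaks, 14.4% at one-sided promoters, 9.96% between divergent genes, 1.50% for exonic peaks and 91.9% at tRNA genes. The interval for intergenic peaks overlapped that for intronic peaks (31.4% to 41.5%) and lay above those of both promoter classes. The 134 peaks fell into 54 groups, 25 of which held 1 intergenic peak only; groups were joined by chains of alignments, so peaks at the ends of a chain need not align with each other. At 26.5% of intergenic summits at least 50 of every 100 bases were marked as repeats in the reference, against 20.3% over the list, and 40.1% of the intergenic flanks were.

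The share of a sequence's places that held a listed peak differed between groups. The 201 bases around the strongest cdh-5 peak aligned at 28 places of the genome, of which 17 held a listed peak and 22 held at least a candidate peak from the longer ranked list; of the 12 places that met the position rule, 9 held a listed peak. For the wnk-1 sequence, 6 of 10 places held a listed peak. For the F56C3.10 array it was 15 of 238, for the pigl-1 group 17 of 1246 and for the oac-9 group 8 of 209. The median identity to the strongest copy was 88.0% at listed cdh-5 places and 85.9% at the others.

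**Figure D1:**
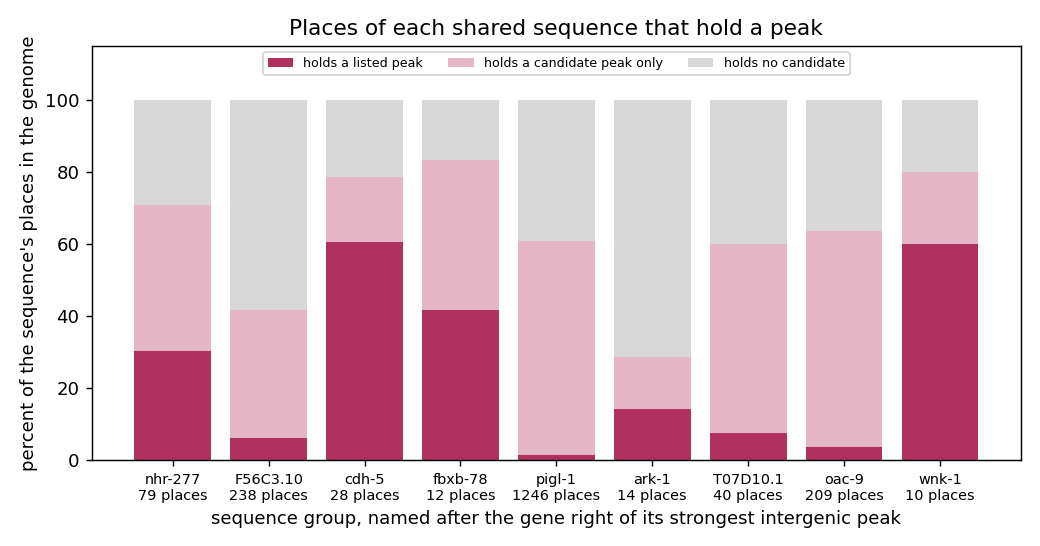
Percent of the places in the genome that align to the strongest intergenic peak of each group, for the 9 groups with at least 4 intergenic peaks, split into places with a listed peak, with a candidate peak only and with none. The cdh-5 and wnk-1 sequences have listed peaks at 60.7% and 60% of their places, the pigl-1 sequence at 1.36%.

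The strongest intergenic peak of all lay 210 bp from the 3′ end of ark-1, a tyrosine kinase gene, and 7157 bp from efa-6, which encodes an exchange factor for small GTPases. Its signal was 938 in replicate 1, 832 in replicate 2 and 1768 pooled, which placed it 6th in the list of 2228. The strongest peak whose summit region shared no sequence with another listed peak lay between bec-1, the autophagy gene, and T19E7.6, with 433 in replicate 1, 372 in replicate 2 and 779 pooled. Their summit regions are shown because of their strength. Both carry some of the short words that were most raised at listed peaks outside this set, given here in capitals.

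Between efa-6 and ark-1, IV:12621831-12621931, plus strand: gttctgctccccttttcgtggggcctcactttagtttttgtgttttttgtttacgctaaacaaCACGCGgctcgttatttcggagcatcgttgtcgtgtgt
Between bec-1 and T19E7.6, IV:5666769-5666869, plus strand: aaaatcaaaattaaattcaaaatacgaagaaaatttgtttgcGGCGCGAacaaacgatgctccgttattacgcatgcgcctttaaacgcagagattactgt

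Those words were the 10 words of 6 bases with the largest rise from flank to summit over the 1556 listed peaks that are neither intergenic nor at tRNA genes, so the intergenic peaks had no part in choosing them. At least 1 of the 10, on either strand, was near 148 of the 374 intergenic summits (39.6%, exact 95% interval 34.6% to 44.7%) and in 41 of their flanks (11.0%). Among the 240 intergenic peaks that share no sequence with another peak it was 37.1% at the summit and 9.17% in the flank. The peaks the words were chosen on had 45.3% at the summit and 11.1% in the flank. CGCGCC, for example, was near 42 intergenic summits and in 6 flanks, and ACGCGC near 32 summits and in 3 flanks.

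A longer word, CTCCGAAAT, was picked after it had been seen in the core of the cdh-5 group and, on the other strand, at the efa-6 to ark-1 summit. It was near 16 intergenic summits (4.28%) and in 0 of their flanks, and 13 of the 16 were in groups that share sequence. Their pooled signal had a median of 433, and 8 of the 16 were among the 20 strongest intergenic peaks. The word was taken from some of the strongest intergenic peaks, so these signals follow in part from how it was chosen. Outside the intergenic set and tRNA genes it was near 68 of 1556 summits (4.37%) and in 3 flanks. Between divergent genes it was near 24 of 281 summits (8.54%). 

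Further words were searched on both strands. A run of 7 T was near 45 intergenic summits and in 101 flanks; 11.0% of all listed summits had it. TTTTCAG, which resembles the 3′ splice site, was near 19 summits and in 52 flanks, and near 5.43% of all listed summits. Both words were rarer at intergenic summits than beside them. TTAGGC, the telomere repeat, was near 14 summits and in 4 flanks, and near 3.14% of all listed summits. GAGAGAG was near 15 summits and in 4 flanks, and near 3.23% of all listed summits. TCTGCGTC was near 8 summits and in 2 flanks, and near 2.29% of all listed summits.

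Base composition also differed between summit and flank. The GC content of the 101 bases at the summit had a median of 44.6% (95% interval 43.6% to 46.5%) for intergenic peaks, against 33.7% in the 101 bases at 250 to 350 bp from it. Over the whole list the medians were 46.5% at the summit and 34.7% in the flank. By content, peaks at snoRNA or snRNA genes had the highest median, 53.5%, and peaks with none of the features named below the lowest, 40.6%. ChIP-seq recovers GC-rich and GC-poor fragments unequally, and the part of this in the result was not tested.

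**Figure D2:**
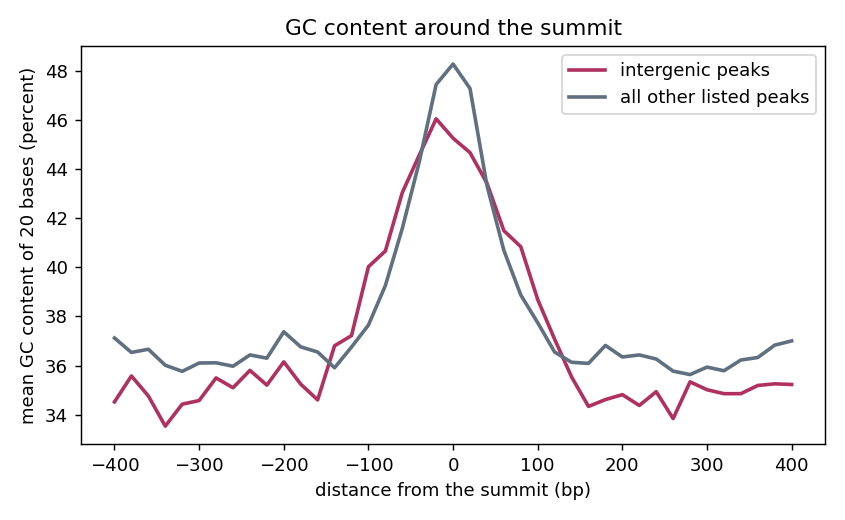
Mean GC content in percent of 20-base stretches from 400 bp before to 400 bp after the summit, for the 374 intergenic peaks and for all other listed peaks. Both lines have their highest point at or beside the summit, and at the summit itself the intergenic line is at 45.3% and the other at 48.3%.

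Beside genes that make no protein, the summit lay in a 5′ window for 124 of the 374 intergenic peaks (33.2%, exact 95% interval to 38.2%), where 25.5% of the bases that meet the position rule are in such a window. Over all listed peaks the share was 32.6%, so the intergenic peaks were near the list as a whole in this. The shares differed by kind of gene. Windows of snoRNA genes hold 0.352% of those bases and had 23 intergenic peaks (6.15%, all listed peaks 4.71%). Windows of snRNA genes hold 0.155% and had 9 (2.41%, all listed peaks 2.02%). Windows of unclassified non-coding RNA genes, the kind called ncRNA in the annotation, hold 10.6% and had 58 (15.5%, all listed peaks 18.8%). Those of pseudogenes hold 5.71% and had 33 (8.82%, all listed peaks 3.19%). The bodies of pseudogenes hold 10.7% and had 21 (5.61%, all listed peaks 1.48%). Within 500 bp of a pseudogene lay 62 intergenic peaks (16.6%), with 15.0% of the bases. Windows of piRNA genes, whose short products silence transposons in the germ line, hold 8.69% and had 14 (3.74%, all listed peaks 2.47%), which is below the share of bases and above that of the list. Windows of different genes overlap, so 1 peak can count under several kinds. The rule leaves out protein-coding genes and their promoters, so the shares of intergenic peaks and of the list rest on different bases.

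At snoRNA genes the summits were close to the start of the gene: 20 of 23 lay within 100 bp of the annotated 5′ end, with a median of 40 bp upstream. The 13 strongest of them all overlapped peaks in both replicates' own lists. T06C12.16, on chromosome V, had 157 in replicate 1 and 194 in replicate 2, with 342 pooled, and its summit lay 40 bp upstream. F32E10.10, on chromosome IV, had 157 in replicate 1 and 139 in replicate 2, with 300.1 pooled, 11 bp upstream. Y23H5B.10, on chromosome I, had 193 in replicate 1, 225 in replicate 2 and 420.1 pooled, 60 bp upstream. The 23 had a median pooled signal of 198, and 14 of them were in both replicates' own lists. None of the peaks at snoRNA windows belonged to the 9 larger sequence groups.

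At snRNA genes 8 of 9 summits lay within 100 bp of the 5′ end, and the median position was 13 bp inside the gene. The strongest was at sls-2.2, a gene for an SL2 spliced leader RNA, the short RNA that is joined to the front of downstream messages of an operon. It had 70.1 in replicate 1, 104 in replicate 2 and 186 pooled. T08G5.11 had 82.9 in replicate 1, 94.2 in replicate 2 and 183 pooled. In all, 3 of the 9 were in both replicates' own lists. Of these 9 peaks, 8 shared sequence with another listed peak.

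Other kinds were few. The strongest peak in an antisense RNA window was at anr-58, between wrb-1 and Y50D4A.6, with 199 in replicate 1, 175 in replicate 2 and 358 pooled. In a 5S ribosomal RNA window, that of rrn-4.15, the signal was 82.9 in replicate 1, 100.02 in replicate 2 and 191 pooled. The miRNA genes mir-51 and mir-80 had the strongest of 3 peaks in miRNA windows: the one near mir-51 had 91.8 in replicate 1, 91.0 in replicate 2 and 190.1 pooled and also held a B box, and the one near mir-80 had 80.3 in replicate 1, 54.8 in replicate 2 and 130.3 pooled and was not in replicate 2's own list. No lincRNA window held a peak, and 5 lincRNA gene bodies did, the strongest at 154 pooled. A tRNA gene window, beyond 100 bp from the tRNA gene itself, held 4 peaks, led by T04D3.t4 on chromosome I with 246 in replicate 1, 224 in replicate 2 and 464 pooled.

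The arrangement of the nearest protein-coding gene on each side also differed from that of the bases the peaks could lie in. Between 2 convergent genes, whose 3′ ends face each other, lay 120 of the 374 (32.1%), where 16.5% of the bases that meet the rule lie: 29.1 peaks per Mb. Between 2 genes in tandem lay 187 (50%, with 53.4% of the bases), at 14.0 per Mb. Between 2 divergent genes lay 64 (17.1%, with 29.8% of the bases), at 8.57 per Mb, and 3 had a protein-coding gene on 1 side only. Within 500 bp of a protein-coding 3′ end lay 159 (42.5%), where 14.0% of those bases lie, and 88 (23.5%) lay within 200 bp, with 6.59% of the bases. The median signal was 130.4 for convergent, 126 for tandem and 116 for divergent positions.

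**Figure D3:**
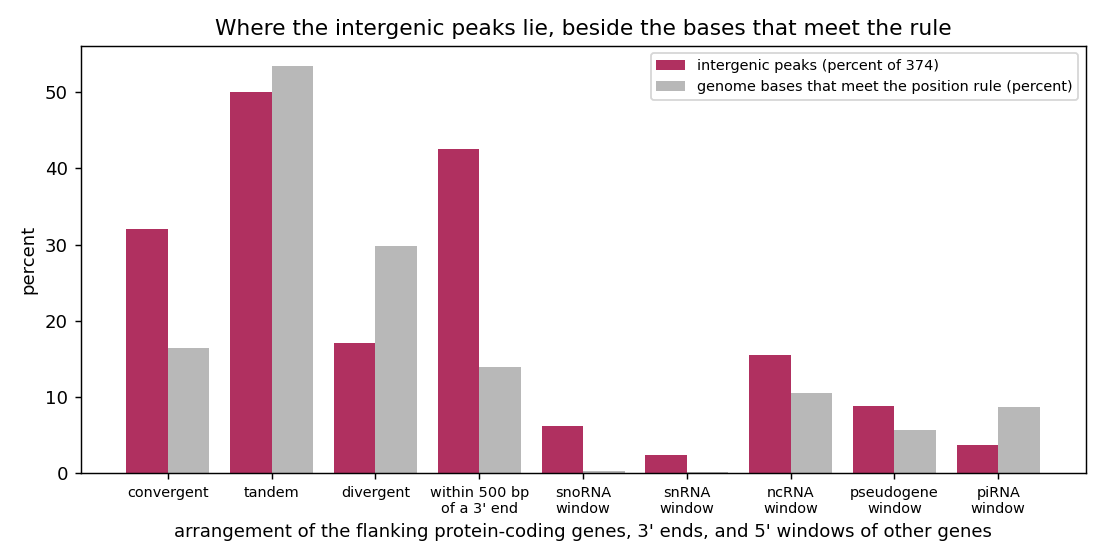
Percent of the 374 intergenic peaks (left bars) and of the genome bases that meet the position rule (right bars), by arrangement of the flanking protein-coding genes, by distance to a 3′ end and by 5′ window of other kinds of gene. Intergenic peaks take 32.1% against 16.5% of the bases for convergent genes, and 42.5% against 14.0% within 500 bp of a 3′ end.

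By chromosome, the counts were 66 on I, 64 on II, 66 on III, 76 on IV, 64 on V and 38 on X. Set against the bases that meet the rule, X had 6.68 intergenic peaks per Mb and the autosomes 17.4 per Mb. Intergenic peaks nevertheless made up 17.0% of the 224 listed peaks on X and 16.8% of the 2004 on the autosomes, close to each other. Along the chromosomes, the middle of 3 equal stretches had 15.6 per Mb and the outer ones 14.6 per Mb. The direction differed between chromosomes: the middle had 32.2 and the outer stretches 19.7 per Mb on I, and 28.6 and 21.1 on III, while on V the middle had 10.7 and the outer stretches 13.2, and on X 3.57 and 7.996. The median distance to the nearest protein-coding 5′ end was 2276 bp, and 76 of the 374 lay over 5000 bp from one. The farthest, at 37928 and 35356 bp, were near the left end of X, with pooled signals of 91.2 and 148, and another, at 37772 bp, lay between sql-1 and aakg-1 with 109.8. Just outside the limit of 1000 bp, 9 intergenic peaks at 1000 to 1100 bp from a 5′ end had a median signal of 116 and ran from 22.6 to 358. Just inside it, 23 promoter peaks at 900 to 1000 bp had a median of 113 and ran from 24.8 to 283.

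The median pooled signal of intergenic peaks was 126 (95% interval 118 to 133). This interval holds the median of the list, 132; the other medians were 175 between divergent genes, 137 at one-sided promoters, 123 in introns, 104 in exons and 151 at tRNA genes. They ran from 2.20 to 1768, and 14 of the 100 strongest listed peaks and 2 of the 25 strongest were intergenic. The lowest pooled values were 2.20 between K07D4.5 and K07D4.9, 4.01 between col-88 and btb-5 and 4.19 between cpf-2 and unc-64. Each of the 3 overlaps a stronger intergenic peak, with 119, 139 and 113 pooled, and was matched to the same replicate peaks as that neighbour, so no replicate value of its own can be given. Of the 374, 19 overlap a stronger listed peak in this way, and their replicate values may be those of the neighbour. Of the 93610 candidates, 2.38% were listed; of the 17974 that met the position rule, 374 were (2.08%).

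**Figure D4:**
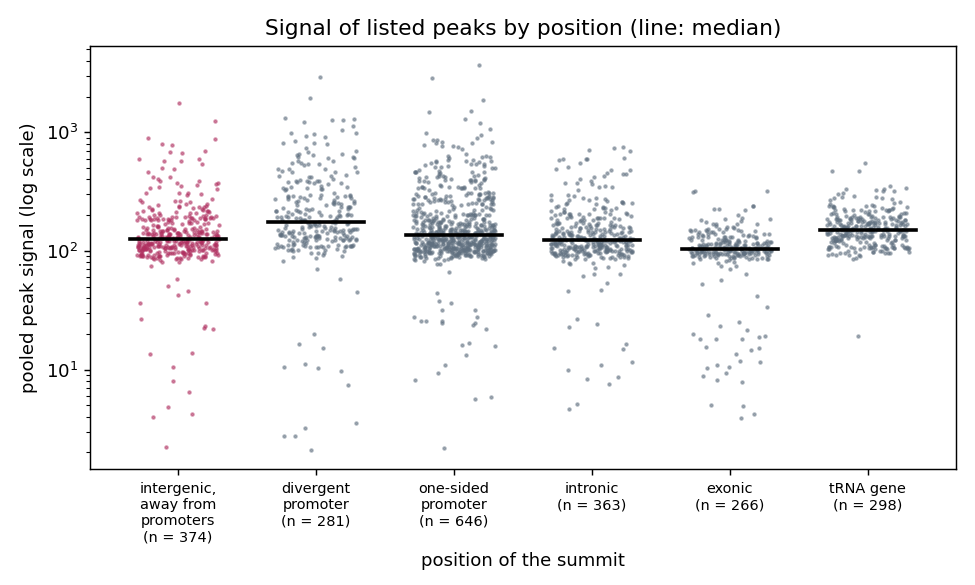
Pooled signal on a log scale of every listed peak, by position of the summit, with a line at each median. The intergenic peaks, at the left, have a median of 126, between those of exonic peaks (104) and of peaks between divergent genes (175).

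In replicate 1's own list 179 of the 374 were found (47.9%, list 55.3%), in that of replicate 2 172 (46.0%, list 50.6%), in both 127 (34.0%, exact 95% interval 29.2% to 39.0%, list 37.9%) and in neither 150 (40.1%, list 32.0%). The conservative list held 300 of them (80.2%, list 83.1%). The share went with strength. In the strongest 25% of the list 75 of 80 intergenic peaks (93.8%) and 96.2% of the rest were in both lists. In the next 25% they were 45 of 90 intergenic peaks (50%) and 47.3% of the rest, then 4 of 102 intergenic peaks and 4.18% of the rest, and in the weakest 25% 3 of 102 intergenic peaks and 3.96% of the rest. In each of these steps the intervals of intergenic peaks and the rest overlapped. Almost all, 370 and 369 of the 374, overlapped a candidate in the ranked lists of replicates 1 and 2. Over the 365 with a value in both, Spearman's rho was 0.58, and 0.63 over all 2186 listed peaks with both values, given as a description since the peaks share the 2 libraries. Without the intergenic peaks that overlap a stronger one it was 0.60 over 348. Replicate 1 was the higher for 143 of the 365, with a median ratio to replicate 2 of 0.90.

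**Figure D5:**
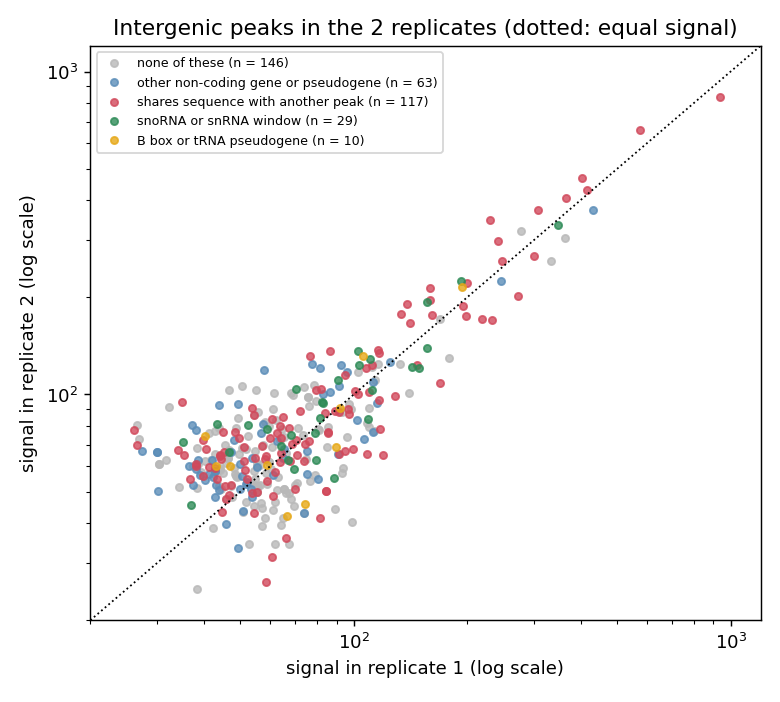
Signal of 365 intergenic peaks in replicate 1 and in replicate 2, both on log scales, coloured by what was found at the summit. The dotted line marks equal signal, and the highest point, at 938 in replicate 1 and 832 in replicate 2, shares sequence with other peaks.

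Taking each peak once, in the order given, 32 lay in the window of a snoRNA or snRNA gene, 10 more held a B box or lay at a tRNA pseudogene, 119 more shared sequence with another listed peak, 66 more were in the window or body of another non-coding gene or pseudogene, and 147 (39.3%) had none of these. The median signal was 170 for the snoRNA or snRNA peaks, 142 for those that share sequence, 121 for B box or tRNA pseudogene, 109 for other non-coding genes and 114 for the remaining 147. In both replicates' own lists were 17 of the 32 snoRNA or snRNA peaks (53.1%), 55 of the 119 that share sequence (46.2%), 3 of the 10 with a B box or tRNA pseudogene, 15 of the 66 at other non-coding genes (22.7%) and 37 of the remaining 147 (25.2%). Over all intergenic peaks it was 34.0% and over the list 37.9%. This share went with strength, in which these kinds also differ. Of the 147, 80 (54.4%) lay within 500 bp of a protein-coding 3′ end. Their strongest lay between T26G10.1 and T26G10.3 on chromosome III, with 363 in replicate 1, 305 in replicate 2 and 668 pooled. Next came a peak between hil-8 and let-355 on chromosome I, with 333 in replicate 1, 259 in replicate 2 and 600 pooled, and one between rog-1 and F54D12.10 on chromosome II, with 278 in replicate 1, 320 in replicate 2 and 595 pooled.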

How the data were processed

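ChIP-seq peak lists of 2 biological replicates of 1 group were used, with replicate numbers from the labels. The authors deposited, on build ce11, thresholded lists (main 2228 peaks, conservative 2171, replicate 1 1358, replicate 2 1200) and ranked lists of candidates (93610 pooled). Per the deposited list of files they derive from filtered alignments and a control. Neither aligner nor peak caller is named in the labels or file headers. For every peak the authors give a signal (a strength relative to a control, scale not stated), a score up to 1000 and a summit. Their deposited ranked lists add a −log10 value of the IDR, the irreproducible discovery rate, a measure of how well peak ranks repeat; the lowest score listed, 830, stands for an IDR of 0.01. No reads were used, so depth is unknown.

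Genes came from Ensembl release 115 of WBcel235, the assembly of ce11 (46890 genes, 19973 protein-coding), names of pseudogenes and the sequence from RefSeq. Of 100.3 Mb, 25.0 Mb met the position rule. Overlap means at least 1 bp. Sequences were compared with blastn 2.17.0 (e-value 1e-05); the rest was done in Python 3.11.15 (numpy 2.4.6, pandas 2.3.3, scipy 1.17.1, matplotlib 3.10.9). Words were searched on both strands within 50 bases of the summit and, for the flank, 250 to 350 bp away on 1 side, the side changing from peak to peak. Intervals are at 95%: exact (Clopper-Pearson) for shares, order-statistic for medians. They take peaks to be independent and hold only counting error. With 1 group there is no test between conditions, and no p-value is given.

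The regions, word lists and gene kinds were chosen with earlier results of these data known. Sequence sharing, TTCNNGAA, CTCCGAAAT and the correlation without peaks that overlap a stronger one were added after seeing the data. The naming rule took the 20 strongest, the strongest on each chromosome, the 2 strongest for each kind of gene, the 5 strongest with a B box, the 3 farthest from a 5′ end and the 3 weakest; peaks named for a sequence group, and 2 snoRNA peaks, were chosen after their values were seen. The scripts were tested on simulated sequences and genes.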

Additional observations from a re-analysis of the deposited data

How the results depend on the processing

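Over 7 results, 71 alternative values were computed, 59 of which stayed in the interval of the main value. These left the interval of the main value. The intergenic share of the list was 22.0% with 500 bp upstream and 11.9% with 2000 bp. The share in both replicates' lists was 70.6% for the stronger 50% of peaks and 27.3% when both peaks had to overlap by 50%. The share in the 5′ window of a gene that is not protein-coding was 40.6% for the stronger 50% and 15.2% inside the gene itself. Median GC content was 42.3% with 100 bp on each side. In the replicates' own lists the intergenic share was 14.7% to 15.5%, the share in 5′ windows 33% to 40.9% and the B box share 1.61% to 5%; in each of these pairs only 1 of the 2 values left the interval (14.7%, 40.9% and 5%). The share of peaks that share sequence, an alternative set chosen after seeing the data, was 41.4% with 50 aligned bases and 24.3% at 90% identity. Widening or narrowing a window changes what is counted; the cause of the other moves was not tested. The conservative list, 1 peak per overlapping cluster, the peak midpoint (within 1 bp of the summit for 85.5% of peaks), a tRNA distance of 500 bp and RefSeq genes left every value inside its interval.

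No paired analysis was possible because all samples belong to 1 group. With no untagged sample, capture that does not depend on the tagged protein cannot be told apart from binding. Depth is unknown, so no limit can be set for a peak found in 1 replicate only.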

Other observations

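In the pooled ranked list 2301 candidates reached the IDR limit of 0.01, and 73 of them are not in the main list. Of these 73, 62 met the position rule, a far larger share than the 16.8% of listed peaks. The strongest of the 62, on X at 15810932 to 15811181, had a pooled signal of 3696, above the strongest listed peak (3680), and the next 3 had 869, 723 and 655. Why the 73 were left out is not stated, and they are in no count of listed peaks above. They do stand among the 93610 candidates, and the 62 among the 17974 that met the position rule. Counted as listed, they would raise both shares of candidates given above, 2.38% and 2.08%. Of the 73, 62 would go to the 2.08%.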
